A study of Homo sapiens with 3 samples.

Results

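The spliceosome and splicing factor genes are 38 genes for the proteins that find, assemble on and cut out introns, taken by name from 58735 genes in the deposited files: the U2AF family, the SF3 complexes, proteins of the small nuclear ribonucleoproteins (snRNPs) and SR proteins. All 38 symbols were found, and all 38 had a mean of at least 1 FPKM (reads scaled for exon length and library size) over the libraries. All cells are labelled KG1a, an acute myeloid leukaemia line. The 2 TRAF7 knockdown libraries, numbered 1 and 2 by the labels, came from cells infected with shTRAF7 lentivirus, which carries a short hairpin RNA against the E3 ubiquitin ligase TRAF7. The 1 control library, whose genotype is given as wild type, came from cells infected with shCtrl lentivirus. The labels do not say whether the knockdown libraries share a hairpin or a culture, so the spread between them may be technical. The p-values rest only on that spread, of the gene itself and of other genes.

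Introns are removed by the spliceosome, which is built stepwise from snRNPs, each a small nuclear RNA with a ring of Sm proteins and proteins of its own. The U1 snRNP binds the 5′ splice site, SF1 the branch point and the U2AF heterodimer the 3′ splice site, after which the U2 snRNP with its SF3a and SF3b complexes replaces SF1. The U5 proteins PRPF8 and SNRNP200 then help form and drive the catalytic core, while SR proteins bind exons and help choose splice sites. Several of these genes (SF3B1, SRSF2, U2AF1, ZRSR2) are known for recurrent mutations in myeloid neoplasms.

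TRAF7 had 15.6 and 18.3 FPKM in TRAF7 knockdown libraries 1 and 2, against 46.5 FPKM in the control. Assigned reads numbered 16221721 and 16254461 in the knockdown libraries and 16014485 in the control. The label KG1a did not match its best known marker: the stem cell antigen gene CD34 had 1 and 10 reads in the knockdown libraries and 0 in the control, and the myeloid granule gene MPO had 0, 1 and 0. The leukocyte genes PTPRC and SPN were present (799 and 973 against 1477 reads for PTPRC, 45.3 and 32.9 against 46.2 FPKM for SPN). So were the epithelial keratin gene KRT8 (68.9 and 60.9 against 49.04 FPKM) and the erythroid transcription factor gene KLF1 (61.7 and 55.8 against 56.5 FPKM). The 10 erythroid markers summed to 299.3 and 271.1 FPKM in the knockdown libraries and 161.7 FPKM in the control, with HBA1 at 90.2 and 74.8 against 22.9 FPKM. Of 8 erythroid markers tested, 4 were higher in both and 1 lower, and none of the 10 was at 0. Of 10 stromal and epithelial markers, 4 were tested, with 3 higher in both and KRT19 lower, and sums of 183.5 and 178.4 against 168.0 FPKM; COL1A2, DCN and CDH1 were at or near 0. Of 8 lymphoid markers, 2 were tested, CD3D and NKG7, both lower, with sums of 6.24 and 8.45 against 9.55 FPKM; MS4A1 and CD8A were at 0 in all 3 libraries. Of 6 KG1a and leukocyte markers, which include CD34, MPO, PTPRC and SPN, 3 were tested, with 0 higher in both, 2 lower and 1 split. The 6 summed to 53.7 and 45.1 against 61.3 FPKM. The part of these markers in the results below was not tested.

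U2AF1 is annotated as one of a pair of near-identical copies on chromosome 21, so its sequence is shown first. Whether both copies are present and expressed in these cells was not tested. U2AF1 (ENSG00000160201, GRCh38 chr21:43092956-43107587, minus strand) and U2AF1L5 (ENSG00000275895, chr21:6484623-6499261, minus strand) both encode the small U2AF subunit, which reads the AG at the 3′ splice site. Their main coding sequences of 723 bases, stop codon included, differed at 0 positions in GENCODE release 29, and of all 100-base windows in U2AF1 transcripts 89.4% also occurred in U2AF1L5 transcripts. Coding bases 301 to 420, counted from the first base of the start codon, show what a read from either copy looks like.
U2AF1: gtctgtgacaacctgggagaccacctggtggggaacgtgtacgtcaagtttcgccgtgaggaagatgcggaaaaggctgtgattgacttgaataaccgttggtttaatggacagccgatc
U2AF1L5: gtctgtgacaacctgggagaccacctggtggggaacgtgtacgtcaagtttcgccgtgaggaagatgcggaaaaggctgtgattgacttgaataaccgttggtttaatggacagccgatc
No base in this stretch tells the copies apart, so how reads were shared out between U2AF1 and U2AF1L5 is uncertain.

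The promoters of 4 genes are shown next: SNRPG and SNRNP25, which rose by limma-voom (below), and SNRPB and SNRPC, which hold the same letters as SNRPG. RefSeq windows (GRCh38.p14, 250 bases before to 50 after a gene's start) matched 34 of the 38 symbols. SNRPG, SNRPB and SNRPC encode Sm proteins and a U1 protein, and their windows hold the letters CCGGAAG, the core bound by ETS-family factors, in capitals here on whichever strand they lie; in SNRPC the matches on both strands overlap. The windows of SNRPG and SNRNP25 lie inside the genes as GENCODE annotates them (chr2:70281362-70293771 and chr16:53010-57669), at starts downstream of the outermost one. The SNRPG capitals come after the start codon of SNRPG transcripts that begin further upstream, and so lie within their transcribed region. The window of SNRNP25, a protein of the minor U11/U12 snRNP, holds the NRF1 motif, in capitals.
SNRPG (chr2:70293409-70293708, minus strand): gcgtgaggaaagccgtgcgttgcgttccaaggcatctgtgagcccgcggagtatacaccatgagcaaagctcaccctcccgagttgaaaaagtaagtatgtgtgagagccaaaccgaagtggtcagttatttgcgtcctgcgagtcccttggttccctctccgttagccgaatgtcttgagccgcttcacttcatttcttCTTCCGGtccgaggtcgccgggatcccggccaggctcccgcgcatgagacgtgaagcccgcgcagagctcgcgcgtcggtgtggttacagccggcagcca
SNRPB (chr20:2470740-2471039, minus strand): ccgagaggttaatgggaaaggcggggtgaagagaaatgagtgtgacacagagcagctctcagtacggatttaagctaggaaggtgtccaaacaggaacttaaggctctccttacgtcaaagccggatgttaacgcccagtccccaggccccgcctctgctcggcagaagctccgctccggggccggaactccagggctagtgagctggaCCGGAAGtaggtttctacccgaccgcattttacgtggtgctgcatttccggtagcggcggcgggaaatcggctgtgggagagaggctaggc
SNRPC (chr6:34757255-34757554, plus strand): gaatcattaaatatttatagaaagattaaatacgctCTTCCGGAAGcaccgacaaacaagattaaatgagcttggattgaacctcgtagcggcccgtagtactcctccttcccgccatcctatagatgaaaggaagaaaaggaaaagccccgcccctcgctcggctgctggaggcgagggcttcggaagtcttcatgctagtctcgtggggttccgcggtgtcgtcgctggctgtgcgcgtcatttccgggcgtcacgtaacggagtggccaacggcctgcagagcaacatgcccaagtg
SNRNP25 (chr16:53578-53877, plus strand): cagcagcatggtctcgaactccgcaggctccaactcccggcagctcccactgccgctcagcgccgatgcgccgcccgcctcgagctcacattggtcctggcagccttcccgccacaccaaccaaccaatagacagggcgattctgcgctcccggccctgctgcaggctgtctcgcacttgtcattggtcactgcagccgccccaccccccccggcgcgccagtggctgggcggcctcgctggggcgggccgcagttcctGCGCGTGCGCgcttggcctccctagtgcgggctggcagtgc
Counting both strands and any window of a gene, CCGGAAG occurred in 16 of 34 members (47.1%), in 24.8% of the 8236 tested genes with a window and in 12.2% of all 27305 genes with a window. It occurred in 6 of 8 SF3 genes and 4 of 6 Sm genes, against 1 of 7 SR genes. The median fitted log2 fold change was 0.36 in the 16 members with the letters and 0.28 in the other 18, and over tested genes 0.09 with and 0.05 without them. The NRF1 motif occurred in 9 members (26.5%) and in 14.7% of tested genes, CACGTG (the E-box) in 1 member, SF3B1, and in 13.4% of tested genes. The letters TGACGT also occurred in 26.5% of members and in 14.7% of tested genes, and TATAAA in 11.8% and 7.3%. By contrast, CCAAT occurred in 26.5% of members and 43.6% of tested genes, and GGGCGG in 61.8% and 78.8%. These matches are descriptions of letters and not of binding.

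Most of the 38 genes had higher levels in both TRAF7 knockdown libraries than in the control, and the Sm core had the highest class median. In all, 31 of the 38 were higher in both knockdown libraries, where 42.5% of all 12640 genes tested were, and 3 were lower in both (U2AF1, ZRSR2 and SRSF11), where 30.8% were. With U2AF1 and U2AF1L5 summed, 31 of 37 were higher in both and 2 lower. Most members are abundant: 34 of 38 lay above the 75th percentile of mean FPKM. Among the 4194 protein-coding genes that averaged 10 FPKM or more, 62.6% were higher in both and 16.1% lower in both, a background nearer to that of these abundant genes. The members' median fitted log2 fold change was 0.32, beside 0.04 over all genes tested and 0.16 over those abundant protein-coding genes. The medians were 0.41 in knockdown 1 and 0.22 in knockdown 2.

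The change of no single member passed the main test. By limma with intensity trend on log2(FPKM + 1), adjusted over all genes tested, 0 of 38 members passed 0.05, as did 0.0% of genes in either direction. At an unadjusted p under 0.05, 11 members were higher (5.46% of all genes) and 1 lower, U2AF1 (3.73% of all genes). With U2AF1 and U2AF1L5 summed, 11 were higher and 0 lower. By limma-voom, run on the recovered reads, SNRPG and SNRNP25 rose (0.206% of 15034 genes did) and U2AF1 fell (0.659% did). Only 1 residual degree of freedom exists, between the knockdown libraries, and the spread of the single control is taken to be the same. The variance of each gene is thus mostly borrowed from other genes, through a prior of 4.74 degrees of freedom in limma and 35.5 in limma-voom. Each SE and p-value therefore reflects more than the gene's own spread. Under quantile normalization 22 members were higher in both and 8 lower, with a median of 0.14. Of all genes tested, 38.6% were then higher in both and 33.8% lower, with a median of 0.02. The members' median thus lay 0.12 above that of all genes, where it lay 0.28 above as reported.

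**Figure D1:**
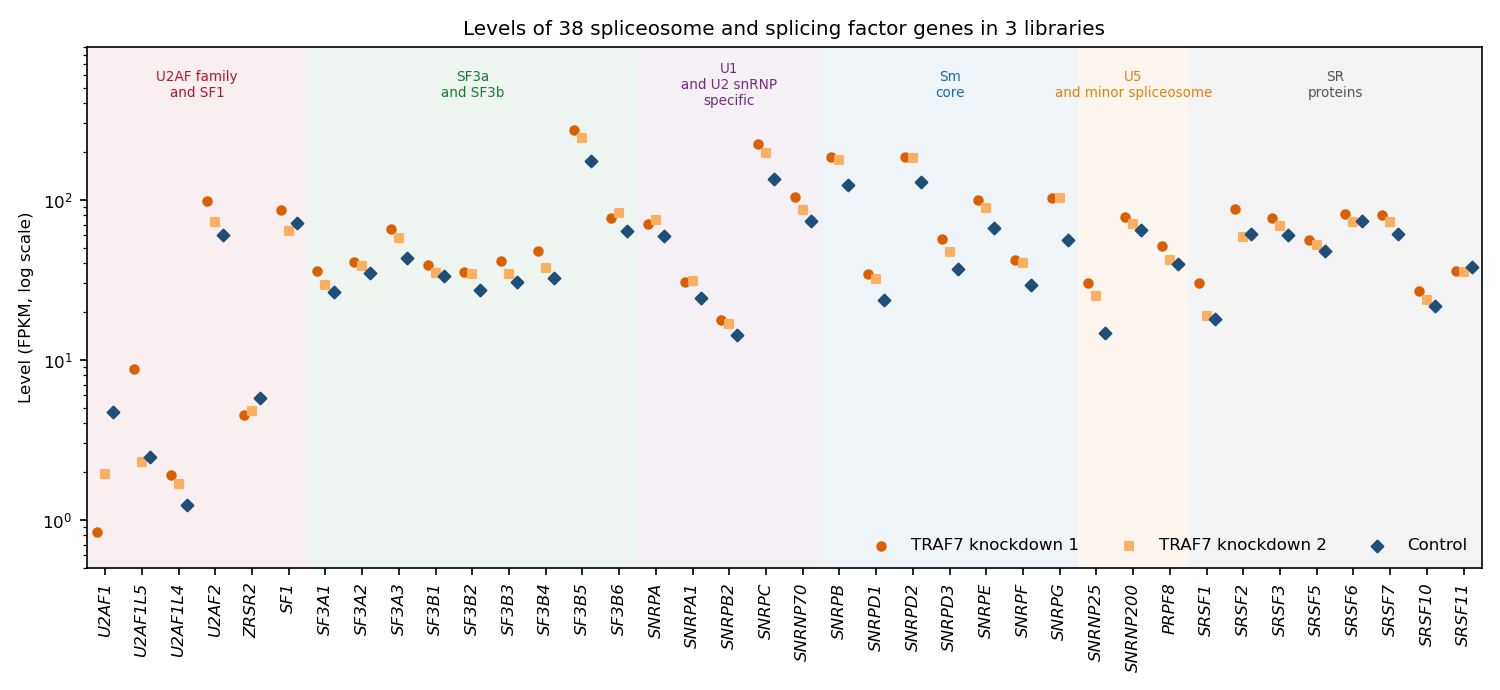
Level of each of the 38 genes (FPKM, log scale) in TRAF7 knockdown 1 (circles), TRAF7 knockdown 2 (squares) and the control (diamonds), by class. The control lies lowest for all 7 Sm core genes and all 9 SF3 genes, while U2AF1 is lowest and U2AF1L5 highest in knockdown 1.

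In the U2AF family, the reads assigned to the annotated copies differed. U2AF1 had 0.838 FPKM in knockdown 1 (145 reads, 95% Poisson interval 0.708 to 0.987 FPKM) and 1.94 FPKM in knockdown 2 (350 reads, interval 1.74 to 2.15), against 4.73 FPKM in the control (887 reads, interval 4.42 to 5.05). U2AF1L5 had 8.82 FPKM in knockdown 1 (1526 reads, interval 8.38 to 9.27) and 2.295 FPKM in knockdown 2 (415 reads, interval 2.08 to 2.53), against 2.47 FPKM in the control (464 reads, interval 2.25 to 2.71). The level assigned to U2AF1 was thus lower in both knockdown libraries, while that assigned to U2AF1L5 was high in knockdown 1 alone. These intervals cover counting error only.

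U2AF1 fell by limma-voom (log2 fold change −1.88, adjusted p = 6.6e-05) but not by limma (−1.302 ± 0.32, SE; adjusted p = 0.407). The call goes when the copies are summed. Their summed level was 9.66 FPKM in knockdown 1 (9.20 to 10.1) and 4.23 in knockdown 2 (3.94 to 4.54), against 7.20 in the control (6.82 to 7.59). The sum lay above the control in knockdown 1 and below it in knockdown 2, and the fitted log2 fold change was −0.135 ± 0.41 (SE; limma adjusted p = 0.945, limma-voom adjusted p = 0.868). Of the joint reads, U2AF1 took 8.68% in knockdown 1 (exact 95% binomial interval 7.37 to 10.1), 45.8% in knockdown 2 (42.2 to 49.4) and 65.7% in the control (63.1 to 68.2). The share thus differed between the knockdown libraries as well as from the control. How reads that fit both copies were counted is not stated, so the sum may not hold all reads of the pair.

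**Figure D2:**
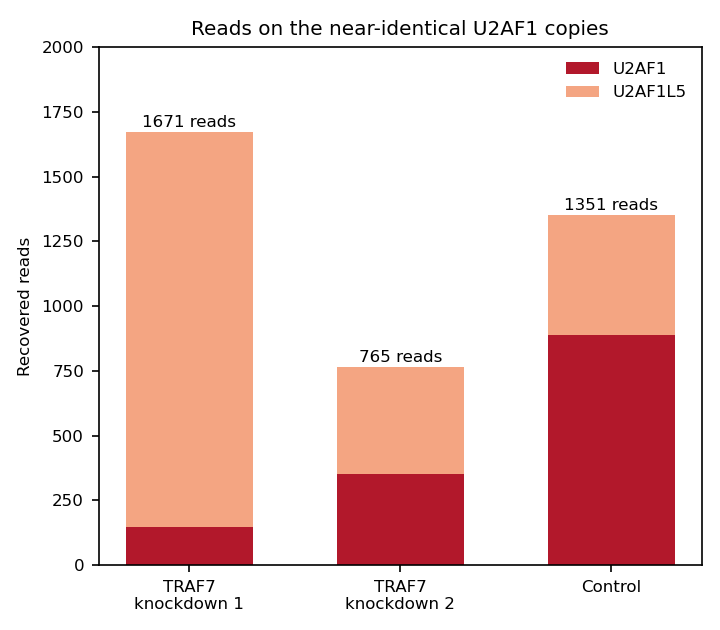
Recovered reads on U2AF1 (dark) and U2AF1L5 (light) in TRAF7 knockdown 1, TRAF7 knockdown 2 and the control, as stacked bars with the total above each. Totals are 1671, 765 and 1351 reads, and U2AF1 makes up the smallest part in knockdown 1.

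The other genes of 3′ splice site recognition split. U2AF2, the large subunit that binds the polypyrimidine tract, had 98.5 and 72.97 FPKM in the knockdown libraries against 60.02 in the control (log2 fold change 0.49 ± 0.22, SE; limma adjusted p = 0.560). U2AF1L4, a shorter paralog of the small subunit, had 1.90 and 1.67 FPKM against 1.24 in the control, on 85, 78 and 60 reads. Both genes were higher in both knockdown libraries, though the Poisson intervals of U2AF1L4 in knockdown 1 (1.52 to 2.35) and knockdown 2 (1.32 to 2.08) both overlapped that of the control (0.943 to 1.59). ZRSR2, which acts on the 3′ splice sites of minor introns, had 4.55 and 4.77 FPKM against 5.73 in the control, on 147, 161 and 201 reads. Its Poisson intervals in knockdown 1 (3.84 to 5.34) and knockdown 2 (4.06 to 5.56) also overlapped that of the control (4.97 to 6.58). SF1, the branch point binding protein, had 85.7 and 63.4 FPKM against 71.9 in the control, which lay between the knockdown libraries. Its log2 fold change of 0.04 took the other sign under median-of-ratios rescaling, quantile normalization and scaling to assigned reads.

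All 7 Sm core genes, whose products form the ring around the snRNA, were higher in both knockdown libraries, and the direction held for all 7 under every scaling tried. Their fitted log2 fold changes ran from 0.46 to 0.85 with a median of 0.50, and all 7 had an unadjusted p under 0.05. SNRPG had 102.3 FPKM in both knockdown libraries (2858 and 2985 reads) against 56.2 in the control (1703 reads). The knockdown values were level with each other and 1.82-fold above the control (log2 fold change 0.85 ± 0.15, SE; limma adjusted p = 0.403, limma-voom adjusted p = 0.0207). SNRPB, the SmB protein, had 185.7 and 176.4 FPKM against 123.0 in the control. SNRPD2 had 186.2 and 182.0 FPKM against 129.8 in the control, and SNRPE 99.9 and 88.7 FPKM against 66.2.

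The remaining Sm genes were SNRPD3 (57.2 and 47.45 against 36.7 FPKM), SNRPF (42.1 and 40.1 against 29.2) and SNRPD1 (34.1 and 31.9 against 23.8), the last with the smallest fitted change. The control was the lowest of the 3 libraries for each. On the per-length scale of FPKM, the control levels of the 7 genes ran from 23.8 to 129.8. The annotation holds 20 pseudogenes of SNRPG and 9 of SNRPE. Pseudogene reads made up 5.21% and 4.997% of the joint SNRPG reads in the knockdown libraries and 8.88% in the control, and 3.86% and 5.30% against 3.51% for SNRPE.

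The 5 proteins specific to the U1 and U2 snRNPs were all higher in both knockdown libraries, with a median log2 fold change of 0.33. SNRPC, the U1-C protein that helps U1 pair with the 5′ splice site, had 222.2 and 197.2 FPKM against 134.3 in the control (log2 fold change 0.64 ± 0.15, SE; limma adjusted p = 0.403, limma-voom adjusted p = 0.105). SNRNP70, the U1-70K protein, had 104.5 and 85.95 FPKM against 74.1 in the control. The U1-A protein gene SNRPA had 70.8 and 74.9 FPKM against 59.2, and the U2 genes SNRPA1 and SNRPB2 had 30.7 and 31.1 against 24.4 FPKM and 17.7 and 16.8 against 14.3 FPKM. In each the control was the lowest library. Under quantile normalization 4 of the 5 were higher in both.

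The 9 genes of SF3a and SF3b, the U2 complexes that hold the branch point, were also all higher in both knockdown libraries, with a median log2 fold change of 0.31. SF3B5 had 271.4 and 243.5 FPKM against 174.2 in the control (log2 fold change 0.56 ± 0.14, SE; limma adjusted p = 0.407, limma-voom adjusted p = 0.1997). It is the most abundant of the 38 genes and the shortest, with 693 exon bases. SF3A3 had 65.6 and 57.8 FPKM against 43.4 in the control, SF3B2 35.2 and 34.6 against 27.3, and SF3B6, which contacts the branch point adenosine, 76.5 and 82.4 against 63.98. In each the control was the lowest library.

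SF3B1, the large HEAT-repeat subunit, lay nearest to the control of the 9, at 39.2 and 34.9 FPKM against 33.6 (log2 fold change 0.14 ± 0.18, SE; −0.05 under quantile normalization). The other members were SF3B4 (48.1 and 37.4 against 32.3 FPKM), SF3B3 (41.2 and 34.3 against 30.4), SF3A1 (35.8 and 29.4 against 26.4) and SF3A2 (40.8 and 38.8 against 34.7). For SF3B4, SF3B3 and SF3A1 knockdown 1 stood clearly above knockdown 2. Under quantile normalization 6 of the 9 were higher in both and 1 lower.

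SNRNP25, the U11/U12 protein (ENSG00000161981, chr16:53010-57669, plus strand), had the highest fitted log2 fold change of the 38. It had 30.1 FPKM in knockdown 1 (28.6 to 31.7) and 24.96 in knockdown 2 (23.6 to 26.4), against 14.7 in the control (13.6 to 15.7). The log2 fold change was 0.86 ± 0.20 (SE; limma adjusted p = 0.403, limma-voom adjusted p = 0.0236). Both knockdown values lay well above the control, at 2.05-fold and 1.70-fold. PRPF8, the U5 scaffold of the catalytic core, had 51.4 and 42.2 FPKM against 39.8, at 1.29-fold and 1.06-fold the control. The U5 helicase SNRNP200 had 77.4 and 70.6 FPKM against 65.0, on the most reads of any member. The fitted change of SNRNP200 was 0.18, and −0.05 under quantile normalization.

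The 8 SR proteins, which bind exonic enhancers through their RNA recognition motifs and contact other factors through serine-arginine repeats, had a median log2 fold change of 0.21. Of these 8, 5 were higher in both knockdown libraries and 1 lower. The share of higher genes was near the 62.6% of protein-coding genes averaging 10 FPKM or more. Class medians were 0.32 in knockdown 1 and 0.08 in knockdown 2, beside 0.20 and 0.11 over those protein-coding genes. Under quantile normalization 2 were higher in both and 3 lower. All 8 had more FPKM in knockdown 1 than in knockdown 2. SRSF1 had 30.1 FPKM in knockdown 1 and 18.8 in knockdown 2, against 18.0 in the control (log2 fold change 0.39 ± 0.29, SE; limma adjusted p = 0.715). Knockdown 2 was level with the control, and the same held for SRSF2 at 88.1 and 58.9 FPKM against 60.97, a gene named after its values were seen.

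SRSF7 had 80.4 and 72.97 FPKM against 60.9 in the control, and SRSF3, a small SR protein, had 76.8 and 68.4 against 60.09. SRSF10 had 26.7 and 23.5 FPKM against 21.8, and SRSF5 had 56.1 and 52.1 against 47.98, with a fitted change of 0.17 that was −0.03 under quantile normalization. SRSF6 lay nearest to the control, at 80.95 and 72.7 FPKM against 73.3; its log2 fold change of 0.07 was −0.18 under quantile normalization and −0.04 under scaling to assigned reads. SRSF11, a U2AF-interacting SR-like protein, was the only SR gene lower in both, at 35.8 and 35.4 FPKM against 38.2 in the control.

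**Figure D3:**
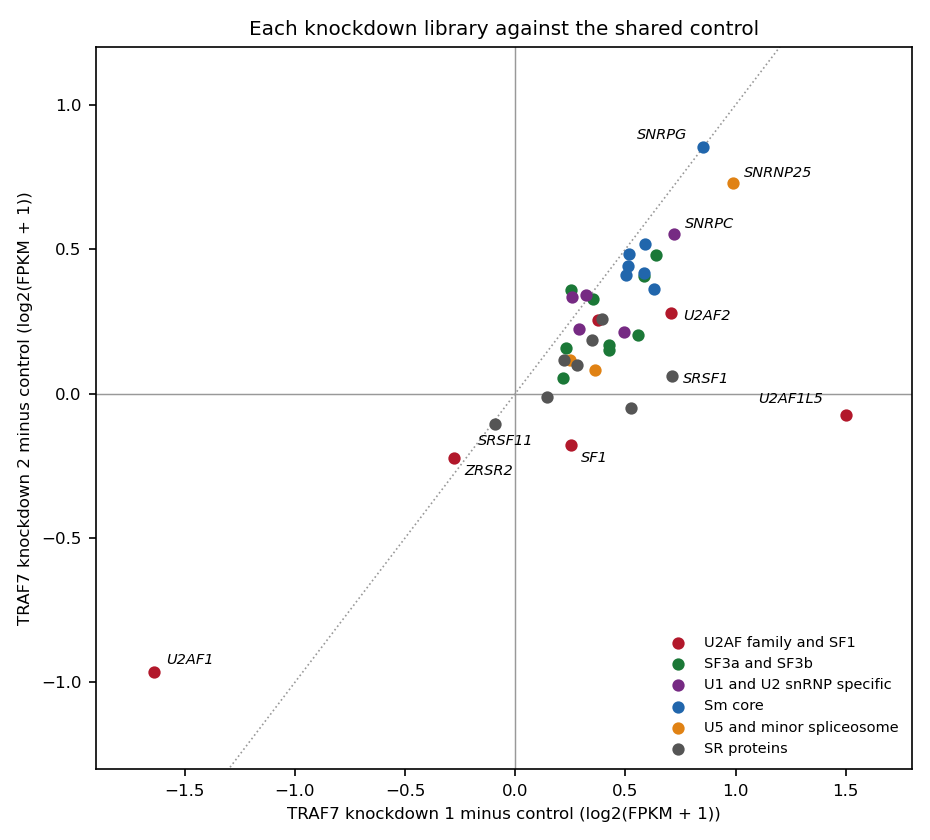
Difference from the control on the log2(FPKM + 1) scale in TRAF7 knockdown 1 (x axis) and TRAF7 knockdown 2 (y axis), 1 point a gene, coloured by class; the dotted line marks equal differences. Both axes subtract the same control library. Points lie mostly right of the line, with SNRPG on it and U2AF1L5 far to the right.

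The libraries differed from each other as well. Knockdown 1 was above knockdown 2 in 33 of the 38 genes, where it was in 54.7% of all genes tested and in 65.9% of the protein-coding genes averaging 10 FPKM or more. It was above by most for U2AF1L5 (1.58 on the log2(FPKM + 1) scale), SRSF1 (0.65) and SRSF2 (0.57). TRAF7 itself was at 33.6% of the control in knockdown 1 and 39.4% in knockdown 2. Sense intronic genes, of which 894 are annotated, together held 448.5 and 475.5 RPM (reads scaled to the assigned total) in the knockdown libraries and 553.2 RPM in the control; their part in the results was not tested.

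The fitted changes also went with exon length, which the choice of genes did not use. Protein-coding genes tested were cut into 5 bins of equal size by summed exon length. The median log2 fold change was 0.16 in the shortest bin (207 to 2880 bases) and −0.01 in the longest (8101 to 44677 bases). The 13 members in the shortest bin had a median of 0.50 and the 9 in the longest a median of 0.19. The members thus lay above the median of all protein-coding genes in both bins. The bins were not matched for level, and most members are abundant, so level and length are not told apart here. Over the 38 genes, Spearman's rho of exon length and fitted change was −0.48, and over 9897 protein-coding genes −0.23; genes of 1 library set share its depth and RNA quality, so these are descriptions.

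**Figure D4:**
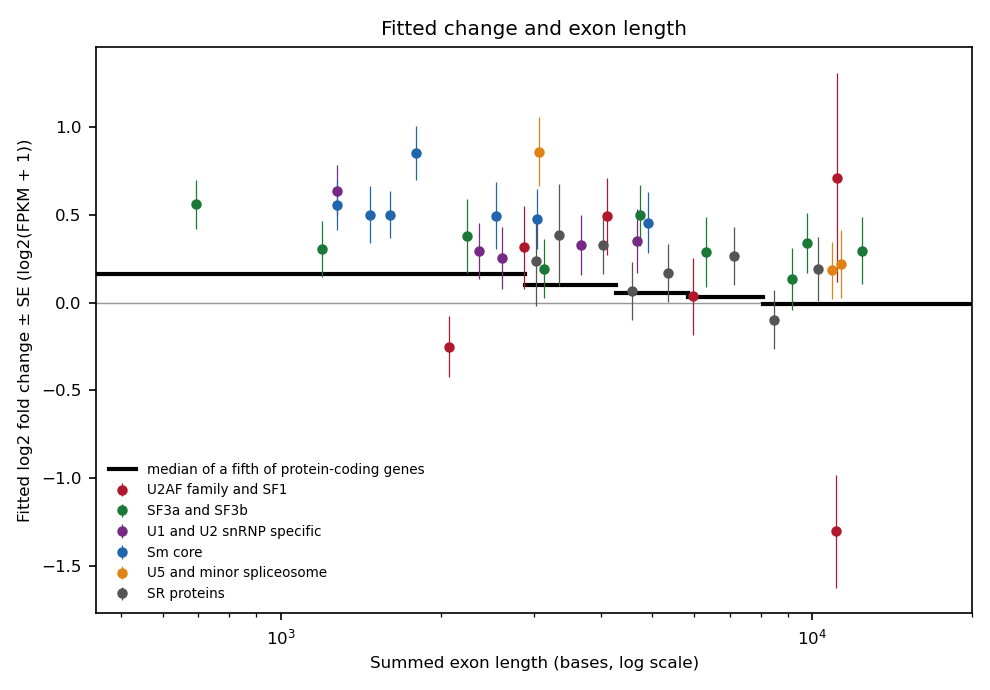
Fitted log2 fold change (± SE) of each of the 38 genes against summed exon length (bases, log scale), with black bars for the medians of protein-coding genes in each of 5 length bins. The Sm genes lie above the bars, which step down from 0.16 to −0.01.

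Most other splicing genes, from 10 lists of 185 genes, were also higher in both knockdown libraries, with a joint median below that of the 38. Of 179 tested, 132 were higher in both knockdown libraries and 13 lower, with a median log2 fold change of 0.22. Over all genes tested, 42.5% were higher in both and 30.8% lower. Over protein-coding genes averaging 10 FPKM or more, 62.6% were higher and 16.1% lower. These shares are the background for each list below. The counts of the LSm, other SR and tissue regulator lists lay between the 42.5% and the 62.6%. Adjusted over all genes, 0 passed limma, and by limma-voom 1 fell (0.659% of genes did). At an unadjusted limma p under 0.05, 19 were higher (5.46% of all genes were) and 0 lower (3.73% of all genes were). Under scaling to assigned reads 106 were higher in both and 33 lower, where 29.8% and 43.8% of all genes were. Under quantile normalization the joint median was 0.12, nearly level with the 0.14 of the 38.

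Proteins of the tri-snRNP and U5 had a list median of 0.33 (0.19 under quantile normalization), with 18 of 20 higher in both. EFTUD2, the U5 GTPase, had 37.5 and 30.8 FPKM against 23.04 in the control, PRPF31 37.2 and 29.4 against 22.2, and TXNL4A 22.5 and 19.8 against 14.5. Of the LSm proteins, relatives of the Sm proteins that include the ring on U6, 6 of 10 were higher in both and 0 lower; LSM3 had 21.6 and 20.97 FPKM against 13.1 in the control (log2 fold change 0.66 ± 0.18, SE; limma adjusted p = 0.443, limma-voom adjusted p = 0.0934), LSM4 91.2 and 95.01 against 70.3, and LSM7 79.1 and 66.6 against 53.6.

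Of 28 genes of activation and catalysis, 22 were higher in both and 1 lower, including PRPF19, the ubiquitin ligase of its complex, at 126.8 and 101.4 FPKM against 80.5 in the control. BUD13 had 15.2 and 15.9 FPKM against 10.7, and CTNNBL1 15.7 and 13.7 against 9.99. Of 17 further U1 and U2 proteins, 13 were higher in both and 2 lower; PHF5A, an SF3b subunit, had 40.4 and 40.3 FPKM against 30.7, PUF60 63.6 and 45.7 against 36.9, and SMNDC1 7.21 and 6.198 against 4.70. Of 18 genes of the SMN complex and snRNP assembly, which load the Sm ring, 16 were higher in both and 1 lower. STRAP had 59.98 and 60.3 FPKM against 43.6 in the control and COPRS 33.6 and 25.8 against 21.2, while GEMIN8, the lower one, had 5.94 and 6.85 against 8.58.

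Of 27 hnRNP genes, 21 were higher in both and 1 lower, with HNRNPA2B1 at 179.7 and 156.2 FPKM against 118.3 in the control, HNRNPA3 at 130.2 and 113.7 against 87.7 and HNRNPDL at 77.7 and 64.9 against 48.6. Of 15 genes of the exon junction complex and nonsense-mediated decay, 12 were higher in both and 1 lower; the core genes MAGOH, EIF4A3 and MAGOHB had 49.9 and 49.1 against 34.2 FPKM, 35.1 and 30.7 against 22.6 FPKM, and 5.56 and 6.46 against 4.32 FPKM. Under quantile normalization the hnRNP count was 13 higher and 8 lower, where 38.6% and 33.8% of all genes were.

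The remaining lists were other SR and SR-related genes (10 of 19 higher in both, median 0.15), minor spliceosome genes (7 of 10, median 0.16, or 0.201 under quantile normalization) and tissue splicing regulators (8 of 16, median 0.04, or −0.06 under scaling to assigned reads, −0.017 under quantile normalization and −0.015 under median-of-ratios rescaling). SRRM1 had 28.6 and 21.8 FPKM against 18.02 in the control, TRA2B 29.7 and 26.5 against 22.1, and SRSF9 46.6 and 42.9 against 36.3. RNPC3, of the U11/U12 snRNP, had 3.19 and 3.35 FPKM against 4.25, ARMC7 6.05 and 6.34 against 4.91, and SCNM1 8.78 and 8.81 against 7.26. CELF2, an RNA-binding splicing regulator, had 8.25 and 17.9 FPKM against 24.1 in the control. It fell by limma-voom (log2 fold change −0.99, adjusted p = 0.0366) but not by limma (−0.93 ± 0.41, SE, adjusted p = 0.560). TARDBP had 32.1 and 22.9 FPKM against 21.5 in the control.

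**Figure D5:**
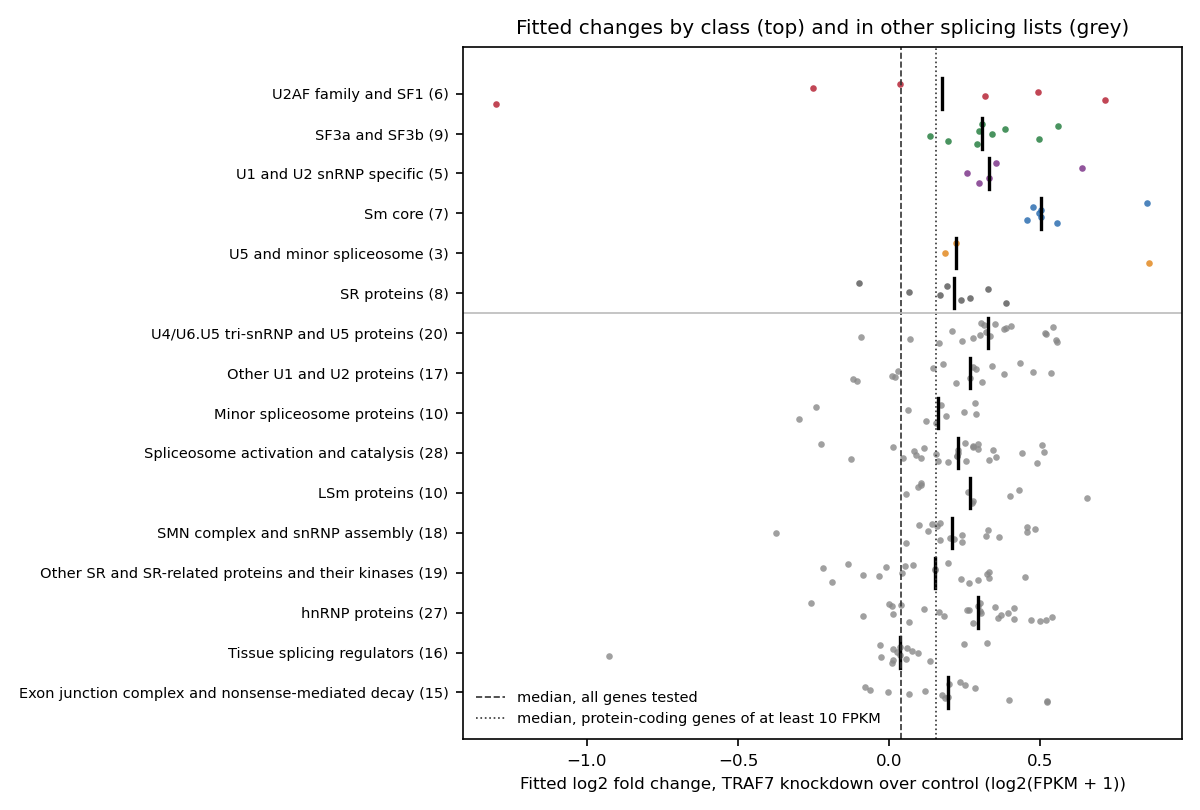
Fitted log2 fold change of TRAF7 knockdown over control for each gene, by class of the 38 genes (coloured, top) and in the other splicing lists (grey), with the number of genes tested in brackets. Black bars are medians, the dashed line the median of all genes tested (0.04) and the dotted line that of protein-coding genes of at least 10 FPKM (0.16); the Sm core median is 0.50.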

How the data were processed

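RNA-seq files of 3 libraries were used. The authors deposited FPKM values, 1 per Ensembl gene; per the submitters' processing notes, BWA, Bowtie and the build hg19 were involved, in roles and versions that are not stated, nor is a counting tool. All 58735 identifiers matched GENCODE release 29 (GRCh38), from which symbols, coordinates and summed exon lengths come. Multiplied by that length, 100% of the values above 0 came out as whole reads (within 0.05) once divided by a constant of each library. The implied divisors equal median-of-ratios factors over genes with reads in all libraries, so the deposited FPKM values already carry such a scaling. The median-of-ratios rescaling tried as an alternative recomputed the factors over genes averaging 1 FPKM or more. Poisson and binomial intervals (95%) and the floor of 3 reads cover counting error only.

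The main test was limma 3.58.1 (R 4.3.3) with its trend option on log2(FPKM + 1), for genes averaging 1 FPKM or more, with Benjamini-Hochberg adjustment over all genes at 0.05. That scale understates changes of low genes. Differences from the control are on the same scale. Limma-voom on recovered reads (mean of at least 10) and the other alternatives are in the closing section. Both tests were also run on simulated data, with known changes larger than most fitted changes of the members. Those runs do not tell how well either test finds changes of the members' size. Whether counting used strand is not stated, so overlapping genes may share reads. Named genes are the U2AF family and SF1, per class up to 4 members with the lowest p and the one nearest 0, and up to 3 genes per other list; the other members are given to account for all 38, chosen after their values were seen. A gene that this rule names is not reported here. CENATAC was matched through its older symbol. Members and lists were chosen with earlier results of these data known.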

Additional observations from a re-analysis of the deposited data

How the results depend on the processing

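No paired analysis was possible because the 1 control library shares no replicate pairing with the knockdown libraries. Among the alternatives, limma called 7 of the 38 genes without a filter (1465 of all genes; most residual variances were then 0, so this fit is unreliable), limma-voom called 3 (130 of all genes), and a mean of at least 5 FPKM gave 3 calls over all genes and 0 among the members that remained; the other settings gave 0 and 0. Quantile normalization gave a members' median of 0.14 (0.32 as reported), 8 members lower in both (3 as reported), and a difference in median change between the shortest and longest bin of exon length of 0.078 (0.17 as reported); that difference was 0.20 at a mean of at least 5 FPKM and 0.12 with a pseudocount of 5. The cause was not tested. The median of all genes was 0.04, and −0.05 under scaling to assigned reads, where 29.8% of genes were higher in both and 43.8% lower, against 36.4% and 36.6% under median-of-ratios rescaling.

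Reversed log2 fold changes were those of SF1 (−0.016 under median-of-ratios rescaling, −0.20 under quantile normalization, −0.068 under scaling to assigned reads), SRSF6 (−0.18 under quantile normalization, −0.039 under scaling to assigned reads), SF3B1 (−0.046), SNRNP200 (−0.047) and SRSF5 (−0.028), the last 3 under quantile normalization. With 1 knockdown library left out, values have no test. The summed U2AF1 copies ran from −0.65 to 0.38, U2AF1L5 from −0.075 to 1.4998, SF1 from −0.18 to 0.25, SRSF2 from −0.049 to 0.52 and SRSF6 from −0.011 to 0.14. The members' median ran from 0.22 to 0.41, the number higher from 31 to 35, the number lower from 3 to 7, and the length difference from 0.16 to 0.19. Over all genes tested, the median ran from 0.03 to 0.06. Of all genes, 55.0% were higher and 44.9% lower without knockdown 1, and 56.7% and 43.2% without knockdown 2. Depth limits U2AF1L4, at 60 to 85 reads per library, and ZRSR2, at 147 to 201.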

Other observations

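Other gene pairs annotated as copies on chromosome 21 were chosen after the values of U2AF1 were seen. CBS, the cystathionine beta-synthase gene, took 97.5% of the reads on CBS and its copy CBSL in knockdown 1 (exact 95% binomial interval 96.8 to 98.1), 98.2% in knockdown 2 (97.7 to 98.6) and 98.8% in the control (98.5 to 99.1). SIK1 took 2.38%, 4.76% and 3.37% of the reads on SIK1 and SIK1B, on 84, 63 and 89 reads. U2AF1 took 8.68%, 45.8% and 65.7% of the reads on its pair in the same libraries.

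Reads on 1909 genes annotated as small nuclear RNA, a class that includes many variant and pseudogene copies, were 40.1 RPM in knockdown 1 (from 37.1 to 43.3 by a 95% Poisson interval), 36.2 RPM in knockdown 2 (from 33.3 to 39.2) and 46.8 RPM in the control (from 43.5 to 50.2). The values rest on 651, 588 and 749 reads.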
